A study of Mus musculus with 6 samples.

Results

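Potassium channel genes of the mouse retina were compared between retinas with and without a conditional deletion of *Yap*. The genes are the protein-coding ones whose symbol is Kcn followed by the letters of a subfamily and a number. *Kcnj2*, *Kcnj10*, *Kcnj13*, *Kcnj16* and *Kcnv2* were left out by name. This gave 87 of the 55421 genes listed in the count table, in 20 subfamilies. Of the 87, 69 had enough reads to be tested and 18 did not.

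RNA was measured by stranded sequencing of polyadenylated RNA in 3 control and 3 *Yap* cKO retina samples. Controls (animals YR612, YR613 and YR615) were *Yap flox/flox* without Cre, and *Yap* cKO animals (YR711, YR713 and YR714) were *Yap flox/flox;Rax-CreERT2*. Every mouse, controls included, received 4-hydroxytamoxifen at postnatal days 10 and 14 and was studied at 2 months of age. In the eye at these ages the Rax-driven Cre is active in Müller glia and in the non-pigmented epithelium of the ciliary body, and not in retinal neurons. The replicates were independent by the study's methods, but whether a sample is 1 retina or a pair from 1 mouse was not given.

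Potassium channels let potassium leave the cell along its gradient and so set the resting potential and end electrical signals. Voltage-gated pores open on depolarization and shape spikes and graded responses, inward rectifiers and channels with a pair of pore domains hold the resting potential, and calcium- or sodium-activated pores couple the ion load of a cell to its excitability. A pore is made of several subunits, some of which are silent alone and only modify a partner, and auxiliary proteins (*Kcnab*, *Kcne*, *Kcnip*, *Kcnmb*) tune gating and transport to the membrane. In the retina potassium channels are known from photoreceptor inner segments, from bipolar, amacrine and ganglion cells and from Müller glia, among others.

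Pore-forming members share a stretch of coding sequence, the selectivity filter, where backbone oxygens of a glycine-tyrosine-glycine or glycine-phenylalanine-glycine run take the place of the water around a potassium ion. The windows below are shown to compare the filter across subfamilies, with 1 pore-forming member described further on from each of 6 subfamilies, 5′ to 3′ on the coding strand, with the codons of these 3 residues in capitals.
Kcna3: atgacaactgttGGTTATGGTgatatg
Kcnc1: atgacgacactgGGCTATGGAgacatg
Kcnd3: atgactacactgGGATATGGAgacatg
Kcnma1: atgtctacagtgGGTTATGGGgacgtt
Kcnh5: cttacaaccataGGATTTGGAaacata
Kcnk1: ctctccaccacaGGCTATGGCcacacg

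The windows of 27 bases lie at chr3:107037605-107037631 (plus strand) in *Kcna3*, chr7:46427967-46427993 (plus) in *Kcnc1*, chr14:23528407-23528433 (minus) in *Kcnma1* and chr12:75087460-75087486 (minus) in *Kcnh5*, all in GRCm38 and each within 1 coding exon. Those of *Kcnd3* (chr3:105459908-105658623) and *Kcnk1* (chr8:125995802-126025025) are split by an intron. Coding sequences of the reference transcripts were searched in frame for a threonine codon (ACN), any codon and a glycine codon (GGN), followed by a tyrosine codon (TAC or TAT) or a phenylalanine codon (TTC or TTT) and a last glycine codon (GGN). Of 72 pore-forming members, 61 held either form, 52 the one with tyrosine and 17 the one with phenylalanine, and none of the 15 auxiliary members held any. Over 21924 coding genes the shares were 0.52% and 0.566%. The 14 *Kcnk* genes, whose product carries a pair of pore domains, held the tyrosine form in 11 and the phenylalanine form in 11. The *Kcnh* genes are the exception among voltage-gated pores, since 7 of 8 did not match this pattern and *Kcnh5* held the phenylalanine form. The pattern asks for a threonine codon at its start, so a filter with another residue there is not counted. A gene without a match is thus not shown to lack the filter.

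*Yap1* was at 9.48, 9.52 and 9.83 TPM (counts divided by gene length and scaled to the library) in the control retinas and at 3.99, 3.76 and 3.94 TPM in the *Yap* cKO retinas (log2 fold change -1.36, edgeR adjusted p = 0.000282), so the libraries went with their labels. Between 24261799 and 35067068 fragments per library were assigned to genes. Of the 16575 genes tested, 247 (1.49%) passed an adjusted p of 0.05 in edgeR's quasi-likelihood test, and 132 (0.796%) also changed by at least 1.5-fold with a mean of at least 5 TPM in a group. Marker genes of other cells differed between the libraries too. Müller glia markers summed to 8008 to 8258 TPM in controls and 7004 to 7357 TPM in *Yap* cKO retinas, with log2 fold changes above 0 for 3 of 10 and none past the test. Connective tissue fibroblast markers summed to 70.6 to 93.0 TPM against 11.7 to 30.2 TPM, and 3 of the 6 tested fell. Retinal pigment epithelium markers summed to 663 to 727 TPM in controls and to 204, 377 and 710 TPM in YR711, YR713 and YR714, and none of 8 passed. Lens markers summed to 3.93 to 16.1 TPM against 1.90 to 3.36 TPM, with 1 of 7 at 0 counts in every retina. Of the other markers tested, 2 of 7 for ciliary non-pigmented epithelium and 1 of 4 for astrocytes fell, 1 of 10 for bipolar cells rose, and none passed among those of ganglion, amacrine and horizontal cells, rods, cones, endothelial cells, pericytes, microglia and oligodendrocytes. Log2 fold changes were above 0 for 9 of 10 amacrine markers, 4 of them higher in every *Yap* cKO retina than in any control, for 7 of 10 bipolar markers, 5 of them so separated, and for 3 of 5 horizontal cell markers, with 2 separated upwards and 2 downwards. Ganglion cell markers were above 0 in 5 of 10 and rod markers in 1 of 10. Over all genes tested, 50.3% were above 0, 12.3% were separated upwards and 12.4% downwards. The summed horizontal cell markers (244.2 to 262 TPM in controls, 204 to 238 TPM in *Yap* cKO) lay apart. The summed amacrine markers (1976 to 2171 TPM in controls, 2050 to 2176 TPM in *Yap* cKO), ganglion cell markers (2605 to 2972 TPM, 2658 to 2987 TPM) and rod markers (61160 to 64870 TPM, 58150 to 62580 TPM) overlapped between the groups. The part of these cells in the potassium channel values was not tested. In whole retinas, a change in the number of cells of a type and a change in RNA per cell cannot be told apart.

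The retina held many of these channels at once. Together the 87 members summed to 2817 ± 142 TPM in controls (SD, n = 3) and 3097 ± 114 TPM in *Yap* cKO retinas, and 49 members reached a mean of 5 TPM in at least 1 group. The most abundant of the 87 was *Kcnj14*, an inward rectifier, at 576 TPM over the 6 retinas. *Kcnab2*, a cytoplasmic beta subunit, was at 290.2 TPM, below *Kcnj14* in every retina. *Kcna5* (135 TPM) and *Kcnj9* (97.9 TPM), which codes for a subunit of the inward rectifiers that G proteins open, came lower, and *Kcna5* lay above *Kcnj9* in every retina. The 18 members not tested held at most 58 counts over the 6 libraries, and *Kcnk16* and *Kcnk18* held none.

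**Figure D1:**
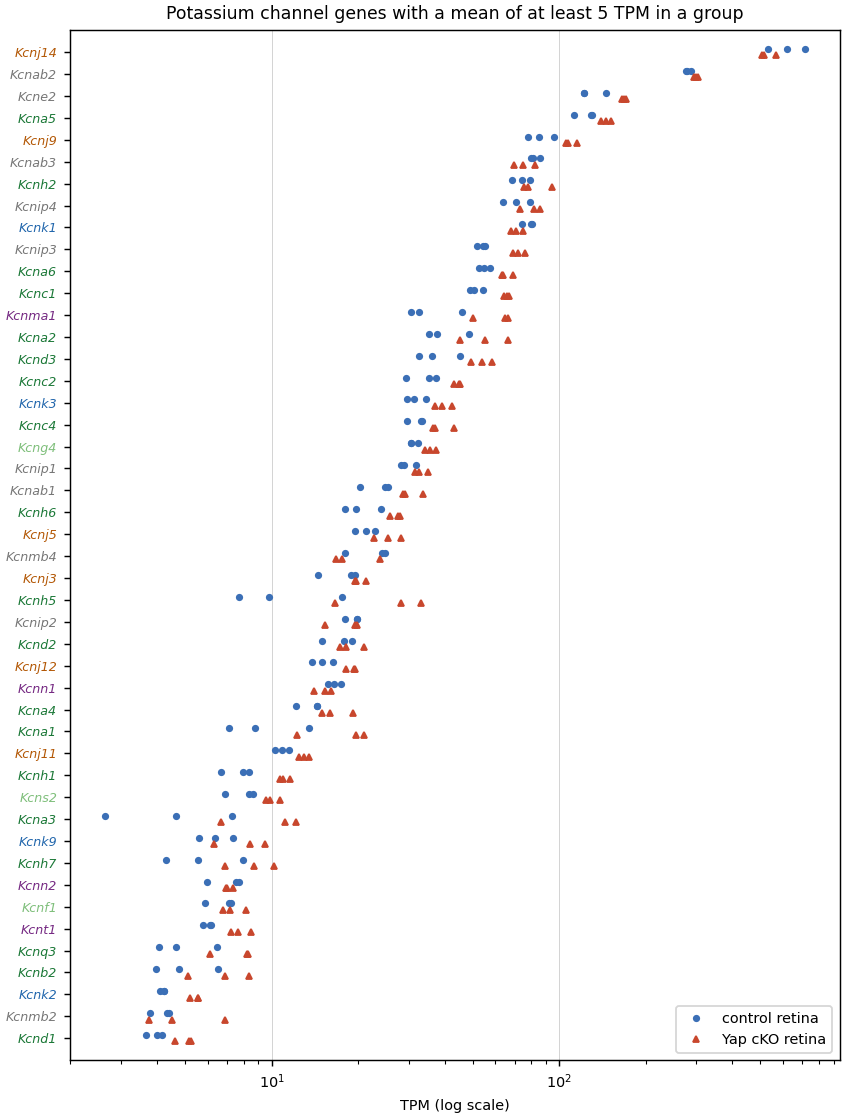
TPM (log scale) of 46 of the 49 potassium channel genes with a mean of at least 5 TPM in a group, with 1 point per retina (circles, control; triangles, *Yap* cKO) and gene names coloured by role as in the plot of log2 fold changes by subfamily. *Kcnj14* lies furthest right, and from *Kcnc1* (48.9 to 54.4 TPM in controls, 64.3 to 66.7 TPM in *Yap* cKO) downward many genes have their triangles to the right of their circles.

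The comparison of *Yap* cKO with control retinas asks which channel genes change when *Yap* is lost from Müller glia and the ciliary non-pigmented epithelium. Potassium channel genes leaned towards higher levels in *Yap* cKO retinas by small amounts, and 2 of them passed the test. Among them was *Kcnip3*, which codes for a calcium-binding partner of *Kcnd* pores. Both rose, at an adjusted p of at most 0.05, and none of the 69 tested members met every criterion, because neither of the 2 changed by 1.5-fold. With upper quartile scaling no member passed. Over all genes tested, 0.501% passed upwards and 0.989% downwards. At an unadjusted p of at most 0.05 there were 28 members higher and 3 lower, beside 12% and 9.42% of all genes tested. Log2 fold changes were above 0 for 53 of 69 members, beside 50.3% of all genes, and their median was 0.20 beside 0.00. With levels as CPM on library sizes scaled by TMM, the trimmed mean of M values, every *Yap* cKO retina lay above every control retina in 24 members and below in 2, *Kcnk1* and *Kcnj4*, beside 12.3% and 12.4% of all genes tested. With 3 retinas against 3, an exact two-sided permutation test cannot give a p below 0.1, so none is given for single genes.

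**Figure D2:**
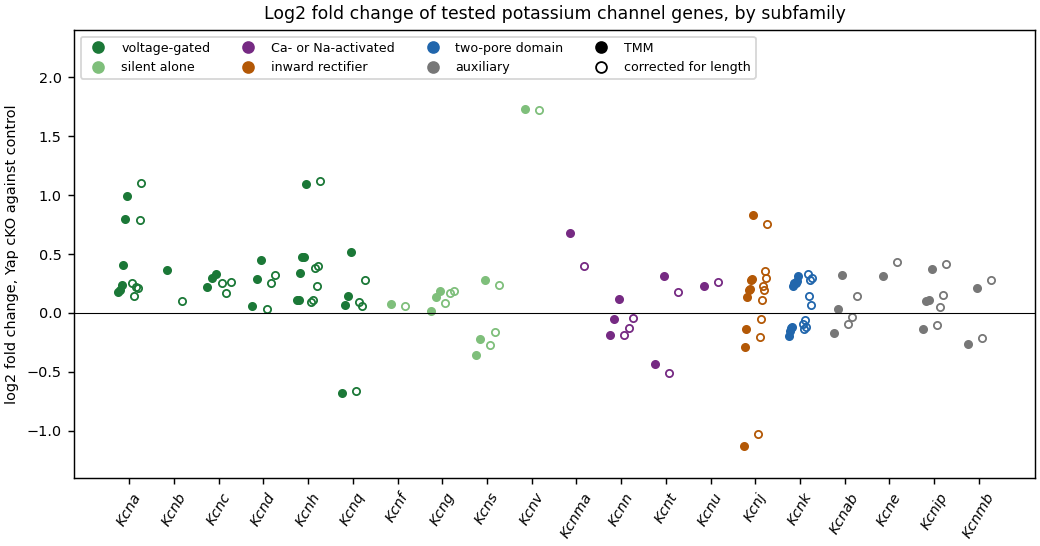
Log2 fold change (*Yap* cKO against control) of 66 of the 69 tested potassium channel genes by subfamily, coloured by role, with TMM scaling (filled circles) and with the correction for gene length (open circles). The plotted genes of *Kcna*, *Kcnc*, *Kcnd* and *Kcnh* lie above 0 with TMM and with the correction, while *Kcnj* and *Kcnk* genes lie on both sides of 0.

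Voltage-gated pores made up the largest role group, with 30 members of which 26 were tested. Their log2 fold changes had a median of 0.32. With TMM, median ratio, library size and upper quartile scaling alike, 25 of 26 were above 0 (beside 50.3% of all genes with TMM). With the correction for gene length described further on, 24 were above 0, and with a retina left out 22 to 25. The exception with TMM was *Kcnq1*, which lay at 0.214 to 0.604 TPM in all 6 retinas. Their summed level was 1070 ± 124 TPM in controls and 1281 ± 130 TPM in *Yap* cKO retinas. In 12 of the 26, and in 14 after the correction, the *Yap* cKO retinas all lay above the controls, beside 12.3% of all genes tested in each case.

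The *Kcnc* genes code for the fast delayed rectifiers that let neurons fire brief spikes at high rates. *Kcnc1* was at 48.9, 54.4 and 50.6 TPM in control retinas YR612, YR613 and YR615, and at 66.7, 65.9 and 64.3 TPM in *Yap* cKO retinas YR711, YR713 and YR714 (log2 fold change 0.30, adjusted p = 0.0671). *Kcnc2* was at 29.3, 37.4 and 35.2 TPM against 45.2, 44.9 and 43.3 TPM (0.33, adjusted p = 0.0884), and *Kcnc4*, whose channels inactivate fast, at 33.1, 29.7 and 33.3 TPM against 37.1, 36.4 and 43.2 TPM (0.22, adjusted p = 0.253). No retina of one group entered the range of the other in any of these 3 genes, and none of the 3 passed the test.

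The *Kcna* genes code for voltage-gated pores, most of them low-threshold delayed rectifiers of axons and dendrites. All 6 tested had log2 fold changes above 0 (0.18 to 0.99) and none passed. *Kcna1* (ENSMUSG00000047976, chr6:126640397-126646384, minus strand) was at 7.14, 13.5 and 8.79 TPM in controls and at 19.68, 21.01 and 12.28 TPM in *Yap* cKO retinas. Its groups overlapped, since YR714 lay below control YR613. The log2 fold change was 0.79 ± 0.235 (adjusted p = 0.119), and the adjusted p was 0.0179 without YR613 and 0.0239 without YR714. *Kcna3* (chr3:107036169-107038070, plus strand) showed the same overlap of YR714 and YR613, with 2.63, 7.29 and 4.65 TPM in controls and 12.2, 11.2 and 6.69 TPM in *Yap* cKO retinas (log2 fold change 0.99, adjusted p = 0.134). *Kcna2*, the usual partner of *Kcna1* along axons, was higher in level than both, at 35.4, 48.4 and 37.6 TPM against 66.7, 55.3 and 45.3 TPM, and again only YR613 and YR714 overlapped (0.41, adjusted p = 0.152). *Kcna5*, the most abundant of the subfamily, was separated by a narrow gap, with 113, 131 and 129 TPM in controls and 145, 151 and 140 TPM in *Yap* cKO retinas (0.18, adjusted p = 0.218). *Kcna6*, separated as well, was at 52.7 to 57.4 TPM against 63.3 to 69.2 TPM (0.19, adjusted p = 0.17). *Kcna7* and *Kcna10* were not tested.

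The *Kcnh* genes code for the ether-à-go-go and related channels. *Kcnh5* (ENSMUSG00000034402, chr12:74897220-75177332, minus strand) was at 7.69, 17.7 and 9.81 TPM in controls and at 33.1, 28.2 and 16.6 TPM in *Yap* cKO retinas. YR714 lay just below YR613, while the other retinas were far apart. Its log2 fold change of 1.09 ± 0.296 (SE) was the largest among members with at least 5 TPM (adjusted p = 0.0997, with 0.0112 without YR613 and 0.0200 without YR714). Its relative *Kcnh1* was at 6.68, 7.94 and 8.34 TPM against values between 10.7 and 11.6 TPM, with the groups apart (0.48 ± 0.0998, adjusted p = 0.0532). *Kcnh2*, the most abundant *Kcnh* gene, whose channels recover from inactivation faster than they close, was at 79.2, 68.3 and 74.4 TPM against 75.8, 78.1 and 94.8 TPM, with overlap (0.11, adjusted p = 0.612), and without YR714 its log2 fold change was -0.02. *Kcna1*, *Kcnh5* and *Kcnma1* are on the study's own list of changed genes, which was chosen on these samples, so their direction is not independent evidence.

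*Kcnd3*, a pore of the transient A-type current, was at 32.7, 45.2 and 36.0 TPM in controls and at 58.4, 53.9 and 49.2 TPM in *Yap* cKO retinas. The groups did not overlap, and the log2 fold change was 0.45 ± 0.107 (adjusted p = 0.0762). *Kcnq3*, a pore of the slow M current that damps repeated firing, was at 4.07, 6.48 and 4.65 TPM against 8.31, 8.24 and 6.09 TPM, with YR714 below YR613 (0.52, adjusted p = 0.13).

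**Figure D3:**
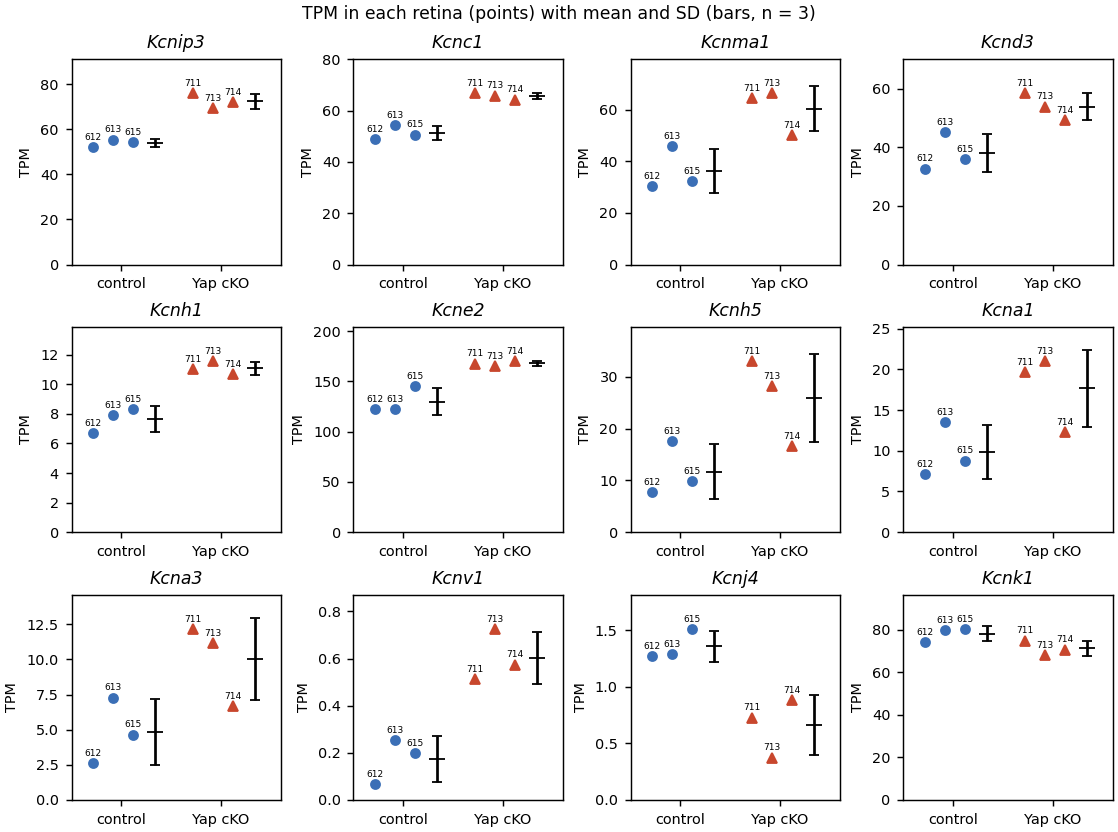
TPM of 12 potassium channel genes in each retina (circles, control; triangles, *Yap* cKO; numbers are animal codes without YR), with group mean and SD as black bars (n = 3). *Kcnip3*, *Kcnc1*, *Kcnma1*, *Kcnd3*, *Kcnh1*, *Kcne2* and *Kcnv1* have all triangles above all circles, *Kcnh5*, *Kcna1* and *Kcna3* have YR714 just below YR613, and *Kcnj4* has all triangles below all circles.

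Subunits that form no channel alone (*Kcnf*, *Kcng*, *Kcns* and *Kcnv*, without *Kcnv2*) had 8 of 9 members tested. With TMM 6 were above and 2 below 0 (5 above with library size or upper quartile scaling), with a median log2 fold change of 0.11. The summed level of these 9 members was 52.6 ± 1.61 TPM in controls and 60.2 ± 1.91 TPM in *Yap* cKO retinas. *Kcng4*, the most abundant of the 9, was at 32.2, 30.6 and 30.5 TPM against 37.2, 35.5 and 34.3 TPM, separated (0.14, adjusted p = 0.34). *Kcns2* was separated as well, at 6.87, 8.33 and 8.64 TPM against 10.7, 9.87 and 9.54 TPM (0.28, adjusted p = 0.19), and *Kcnf1* overlapped, at 5.89 to 7.23 TPM against 6.78 to 8.17 TPM (0.07, adjusted p = 0.745). *Kcnv1*, a silent partner of delayed rectifier pores, was named after its values were seen, as the member with the largest log2 fold change. It held 2, 8 and 7 counts in controls and 15, 29 and 18 in *Yap* cKO retinas (0.0661, 0.255 and 0.199 TPM against 0.512, 0.727 and 0.574 TPM). The groups did not overlap, but the level was low throughout (log2 fold change 1.73 ± 0.397, adjusted p = 0.0687).

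Among the calcium- or sodium-activated pores and their Slo relative *Kcnu1*, 7 of 8 members were tested, 4 above and 3 below 0, and with the length correction 3 above and 4 below. *Kcnma1* (ENSMUSG00000063142, chr14:23289431-24014491, minus strand) codes for the large-conductance BK pore, which both calcium and voltage open. It was at 30.6, 46.1 and 32.5 TPM in controls and at 64.6, 66.4 and 50.3 TPM in *Yap* cKO retinas. The groups did not overlap, with YR613 the highest control and YR714 the lowest *Yap* cKO retina. The log2 fold change was 0.68 ± 0.146 (1.601-fold, adjusted p = 0.0589), and the adjusted p was 0.00588 without YR613, 0.0159 without YR714 and between 0.132 and 0.258 without any other. *Kcnt1*, a sodium-activated pore, was at 6.11, 6.16 and 5.78 TPM against 8.46, 7.23 and 7.64 TPM, separated (0.31, adjusted p = 0.132). *Kcnn1*, a small-conductance calcium-activated pore, overlapped narrowly, at 17.5, 16.5 and 15.8 TPM against 14.1, 15.3 and 16.1 TPM (-0.19, adjusted p = 0.32).

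The inward rectifiers, without *Kcnj2*, *Kcnj10*, *Kcnj13* and *Kcnj16*, had 9 of 11 members tested, 6 above and 3 below 0. The summed level of these 11 members was 780.3 ± 80.3 TPM in controls and 727 ± 38.8 TPM in *Yap* cKO retinas, most of it *Kcnj14*. *Kcnj14* was at 713.7, 618 and 532 TPM in controls and at 517, 507 and 569 TPM in *Yap* cKO retinas, with YR714 above YR615 (-0.29 ± 0.121, adjusted p = 0.214). *Kcnj9* was at 78.1, 85.1 and 95.8 TPM against 106, 107 and 116 TPM, separated (0.29, adjusted p = 0.13). *Kcnj4* (ENSMUSG00000044216, chr15:79483714-79505241, minus strand), a strong inward rectifier, was at 1.27, 1.29 and 1.51 TPM in controls and at 0.728, 0.374 and 0.884 TPM in *Yap* cKO retinas. All *Yap* cKO retinas lay below all controls, on 7 to 25 counts per library, with the lowest log2 fold change of any member (-1.13 ± 0.340, adjusted p = 0.123).

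The channels with a pair of pore domains, which carry leak currents, had 9 of 14 members tested, 5 above and 4 below 0, and almost equal sums (128 ± 1.91 and 132 ± 0.896 TPM). *Kcnk1* (ENSMUSG00000033998, chr8:125995170-126030685, plus strand), the most abundant of them, was at 74.3, 79.9 and 80.5 TPM in controls and 74.9, 68.0 and 70.7 TPM in *Yap* cKO retinas. On the TPM scale YR711 lay just above YR612, and with TMM scaling all *Yap* cKO retinas lay below the controls (-0.19 ± 0.0740, adjusted p = 0.185). With the length correction its log2 fold change was -0.09 and the groups overlapped. *Kcnk2*, a mechanically gated pore, was at 4.11 to 4.24 TPM against 5.19 to 5.56 TPM (0.32, adjusted p = 0.17). Reads of *Kcnk4* share exons with another gene of the same strand, *Catsperz*, so its value is uncertain.

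Auxiliary subunits had 10 of 15 members tested, 7 above and 3 below 0 (6 and 4 with upper quartile scaling or the length correction). *Kcnip3* (ENSMUSG00000079056, chr2:127456498-127522094, minus strand) codes for a calcium-binding protein that joins *Kcnd* pores and can also act on transcription in the nucleus. It was at 51.9, 55.3 and 54.2 TPM in controls and at 75.9, 69.2 and 72.1 TPM in *Yap* cKO retinas. The gap between the groups was wider than the range within either. It rose 1.29-fold (0.37 ± 0.0717, adjusted p = 0.0423), and the adjusted p was 0.112 to 0.185 without YR612, YR615, YR711 or YR713 and 0.0526 with library size scaling. The other *Kcnip* genes overlapped between the groups (log2 fold changes -0.14 to 0.11, with *Kcnip4* the most abundant at 63.9 to 79.3 TPM against 72.8 to 85.6 TPM). *Kcne2*, a single-pass subunit that joins *Kcnq* and *Kcnh* pores, was at 122, 122 and 146 TPM against 168, 166 and 170.3 TPM. Its *Yap* cKO retinas were all higher and close together (0.31 ± 0.0889, adjusted p = 0.11). *Kcnab2* was at 288, 278 and 277 TPM against 295, 299 and 305 TPM, apart on the TPM scale but overlapping with TMM (0.04, adjusted p = 0.793). *Kcnab3* (79.9 to 85.7 TPM against 69.8 to 82.7 TPM) and *Kcnmb4*, a BK subunit of neurons (18.04 to 24.9 TPM against 16.8 to 23.9 TPM), had negative log2 fold changes, -0.17 and -0.27, with overlapping groups.

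Long genes and short genes differed in these libraries as a whole, and many potassium channel genes are long. Across all genes tested, log2 fold change and exonic length had a Spearman rho of 0.39, a description across genes of the same 6 libraries, and across the 69 members it was 0.42. The median exonic length was 4587 bases for the members tested and 4132 bases for all genes. The shortest 23 members (1767 to 3806 bases) had a median log2 fold change of 0.11 with 13 above 0, the middle 23 one of 0.19 with 19 above 0, and the longest 23 (5995 to 16976 bases) one of 0.32 with 21 above 0. After offsets fitted to length in each library, these medians were 0.15, 0.18 and 0.15, the median of all members was 0.15 beside 0.00 for all genes, and 50 of 69 members were above 0 beside 50%. Every *Yap* cKO retina then lay above every control in 25 members (beside 12.3%), 22 of them among the 24 above, and below in 2, *Kcnn1* and *Kcnj4* (beside 12.2%).

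**Figure D4:**
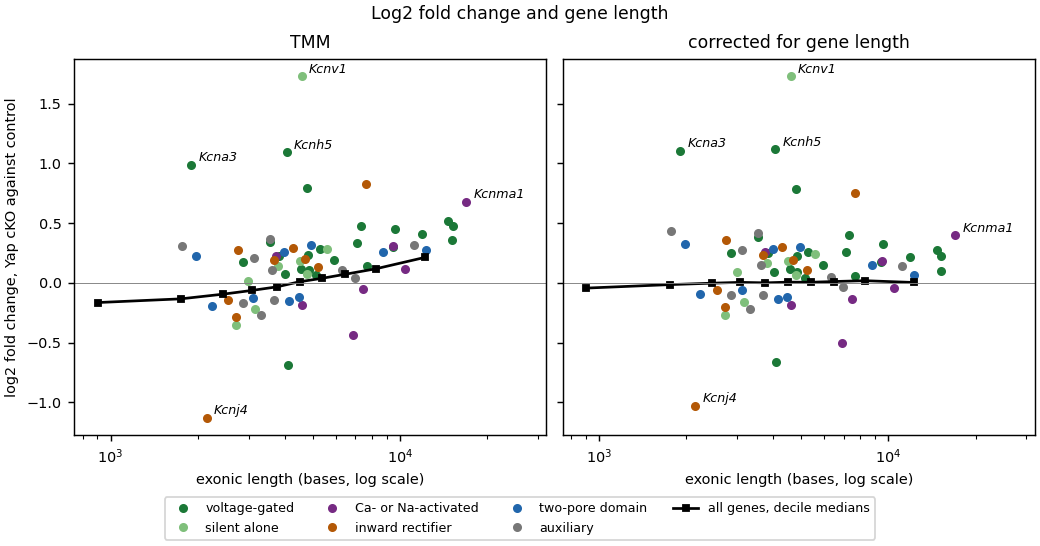
Log2 fold change (*Yap* cKO against control) against exonic length in bases (log scale) for 66 of the 69 tested potassium channel genes, coloured by role, with TMM scaling (left) and with the correction for gene length (right); black squares are medians of all tested genes in 10 length classes. The black line climbs from -0.17 to 0.21 with TMM and stays near 0 after the correction, and most channel genes lie above it in both.

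The correction changed which members passed. At an adjusted p of at most 0.05, 6 members rose and none fell with it, beside 1.14% and 1.64% of all genes, and none met every criterion, beside 0.941%. They included *Kcnip3* (log2 fold change 0.41, adjusted p = 0.0128), *Kcne2* (0.43, adjusted p = 0.0162), *Kcnma1* (0.40, adjusted p = 0.0170), *Kcnd3* (0.32, adjusted p = 0.0374) and *Kcnv1* (1.73, adjusted p = 0.0478). For *Kcnma1*, with 16976 bases the longest member, the log2 fold change went from 0.68 to 0.40. *Kcnh5*, *Kcna3* and *Kcna1*, which are of middle or short length, were at 1.12, 1.10 and 0.79 with the correction, against 1.09, 0.99 and 0.79 without it. The median of voltage-gated pores went from 0.32 to 0.22 with the correction, and that of calcium- or sodium-activated pores from 0.12 to -0.04.

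edgeR's likelihood ratio test, which does not carry the uncertainty of the dispersion, called more genes throughout. It called 12 members higher and 1, *Kcnj4*, lower, beside 3.36% and 2.82% of all genes. Of these, *Kcna1*, *Kcna3*, *Kcnh5* and *Kcnma1* met every criterion, beside 0.742% of all genes for higher levels, and with the length correction *Kcna1*, *Kcna3* and *Kcnh5* did, beside 0.591%.

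**Figure D5:**
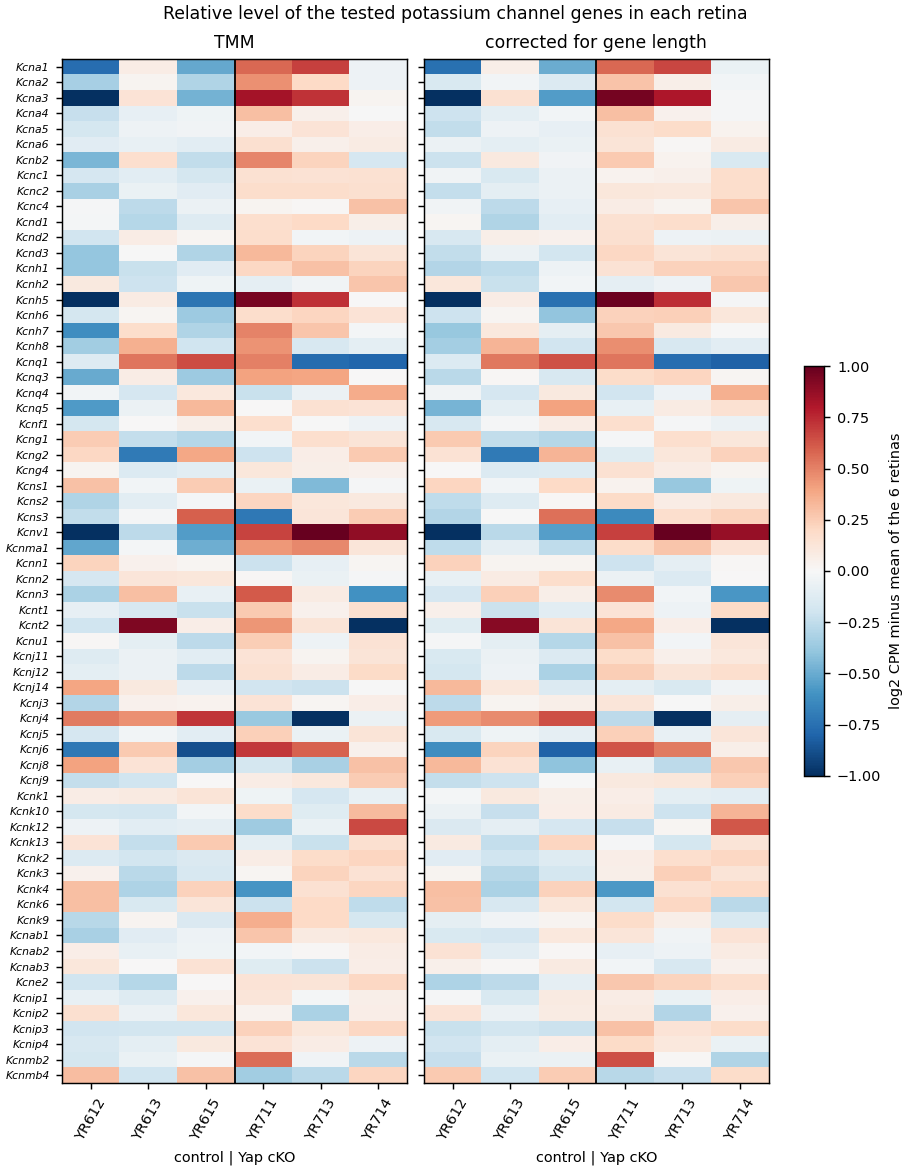
Level of 66 of the 69 tested potassium channel genes in each retina, as log2 CPM minus the mean of the 6 retinas (colour, from -1 to 1), with TMM scaling (left) and with the correction for gene length (right); the black line parts control from *Yap* cKO retinas. Each panel is mostly red to the right of the line and mostly blue to its left, with YR612 the bluest control (median -0.17 with TMM) and YR711 the reddest *Yap* cKO retina (median 0.16).

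The retinas did not contribute alike. Relative to each gene's mean over the 6 retinas, the median over the 69 members was -0.17, -0.06 and -0.08 in YR612, YR613 and YR615 and 0.16, 0.08 and 0.07 in YR711, YR713 and YR714 on the log2 scale. All 3 control medians were thus below all 3 *Yap* cKO medians, and this was so with the length correction too (-0.14, -0.09 and -0.06 against 0.13, 0.05 and 0.08). Control YR613 was the highest control in 28 members and YR714 the lowest *Yap* cKO retina in 28, beside 38.0% and 37.8% of all genes tested, and both held in 18 (26.1%, beside 25.0%). Along length, YR613 (rho 0.17 over all genes) stood with YR711 (0.39) and YR713 (0.38), and YR714 (-0.15) with YR612 (-0.41) and YR615 (-0.40). Left out, YR613 gave 17 members past the adjusted p of 0.05 and YR714 gave 12, all higher, beside 6.1% and 3.14% of all genes tested in those fits. Leaving out YR612, YR615, YR711 or YR713 gave none. The 12 without YR714 included *Kcna1*, *Kcna2*, *Kcna3*, *Kcnd3*, *Kcnh1*, *Kcnh5*, *Kcnip3*, *Kcnma1*, *Kcnq3* and *Kcnv1*, and the 17 without YR613 included these and *Kcnc1*, *Kcnc2*, *Kcnh6*, *Kcnh7* and *Kcnj6*. The median log2 fold change of the members stayed between 0.17 and 0.23 across these fits.

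Genes that work beside these channels were taken as lists. Of proteins that anchor or modify potassium channels under other symbols, 17 of 19 were tested, none passed, and 15 were above 0 (median 0.18, and 0.01 with the length correction). Their largest value was that of *Dlg2*, a scaffold of *Kcna* channels and of synapses, at 43.1, 60.6 and 48.7 TPM against 82.6, 77.8 and 66.3 TPM (0.52, adjusted p = 0.0624, and 0.22 with the correction). The 4 hyperpolarization-activated channel genes were all above 0 (median 0.35, and 0.23 with the correction), none passed with TMM, and 1, *Hcn3*, passed with the correction. *Hcn3* was at 19.5, 17.95 and 17.6 TPM against 23.7, 27.6 and 25.4 TPM (log2 fold change 0.42, adjusted p = 0.0735, and 0.44, adjusted p = 0.0351, with the correction), without overlap. Of the sodium pump subunits, which restore the potassium gradient, 12 of 13 were tested, 2 fell and none rose (median -0.21). Among these, *Atp1b3*, a beta subunit, was at 219, 199 and 226 TPM against 160.2, 144 and 157 TPM (-0.54, adjusted p = 0.0231). Every *Yap* cKO retina was below every control. Of the cation-chloride cotransporters, 5 of 7 were tested and none passed (median 0.18, and 0.04 with the correction).

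YAP acts on genes through TEAD factors, so the letters CATTCC of the TEAD motif, or GGAATG for the other strand, were counted in RefSeq promoter windows of GRCm38.p6, from 250 bases before to 50 after a start site. Windows were matched for 63 members and not for 24. The motif was present in 12 of 85 member windows (14.1%) and in 14.7% of all 32851 windows. The bases before the start are shown for *Kcnh5* (chr12:75177333-75177582, minus strand) and *Kcnk1* (chr8:125994852-125995101, plus strand), a gene with a positive and a gene with a negative log2 fold change whose window holds the motif (capitals, first base at -186 and -32 from the start).
Kcnh5: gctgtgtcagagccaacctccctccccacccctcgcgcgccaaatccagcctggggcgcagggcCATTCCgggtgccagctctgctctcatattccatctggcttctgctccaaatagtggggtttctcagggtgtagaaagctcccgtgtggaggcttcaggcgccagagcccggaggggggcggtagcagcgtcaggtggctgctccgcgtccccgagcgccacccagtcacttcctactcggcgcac
Kcnk1: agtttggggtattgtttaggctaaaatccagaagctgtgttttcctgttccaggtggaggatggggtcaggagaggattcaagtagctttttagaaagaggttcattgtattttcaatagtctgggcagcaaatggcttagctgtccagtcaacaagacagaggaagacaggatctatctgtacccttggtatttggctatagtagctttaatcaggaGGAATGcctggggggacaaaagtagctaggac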

How the data were processed

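The labels give genotype, animal code and the days of induction, and the study's methods give the age. The authors aligned paired-end reads to GRCm38 with STAR 2.7.3a and counted fragments per gene on the sense strand of exons with featureCounts 1.6.2. The deposited values are counts without normalization, with exonic lengths, and the file header names annotation release 98. Gene symbols came from GENCODE M21.

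TPM were computed from counts and lengths. Genes kept by filterByExpr were scaled by TMM and tested with edgeR 4.0.16 (quasi-likelihood, R 4.3.3), adjusting p by Benjamini-Hochberg across 16575 tested genes (common dispersion 0.0126). Following the study's criteria, an adjusted p no higher than 0.05 was combined with a minimum fold change of 1.5 and a group mean of 5 TPM or more. No covariate was fitted. Alternatives were DESeq2 1.42.0, limma-voom (limma 3.58.1), the likelihood ratio test, other scalings, filters and thresholds, loess offsets for gene length (span 0.3), and each retina left out. Total counts of 24261799 to 35067068 per library set the counting error, which the model includes. The fits were also run on simulated counts with known fold changes, with and without a length trend of opposite sign by group. In these libraries YR613 and YR714 departed from their groups along length, so the simulation does not test the length correction in that setting.

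Members and lists were chosen with earlier results of these data known. Genes were named by passing the test, by the study's own list, by the highest TPM within a subfamily or among all members, and, among genes with at least 1 TPM whose groups do not overlap, by the 5 largest and 5 smallest log2 fold changes. Other members are named for their place in a subfamily. Some genes that this rule names, and 1 sequence window, are not reported here, and 3 members are left out of the plots.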

Additional observations from a re-analysis of the deposited data

How the results depend on the processing

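The median log2 fold change of the members stayed above 0 in every alternative, between 0.15 and 0.23. The counts below are of 69 members tested, except 62 with the filter on CPM and 85 without a filter on low counts. With all 6 retinas, the *Yap* cKO retinas all lay above the controls in 21 (upper quartile factors) to 25 members. Over all genes tested the share was 12.3% with TMM and with the length correction, and it is not given for other settings. With a retina left out the count was 25 (without YR711) to 34 (without YR613). There 3 retinas face 2, which separate more easily, so these counts are not comparable with the others. Members with an adjusted p of at most 0.05 numbered 0 with upper quartile factors, 2 with median ratio factors, library size only or a filter on CPM, 3 with limma-voom, 6 with length-corrected offsets, 12 with DESeq2, 13 with the likelihood ratio test with or without length correction, and 21 without a filter on low counts. Over all genes tested, the shares past this threshold were 1.7% with upper quartile factors, 1.48% to 1.69% with the settings that gave 2 members, 1.64% with limma-voom, 2.78% with length-corrected offsets, 5.38% with DESeq2, 6.18% and 6.21% with the likelihood ratio tests and 6.19% without a filter. With every criterion they numbered 1 (*Kcnma1*) with library size only, 3 with DESeq2 or the length-corrected likelihood ratio test, 4 with the likelihood ratio test or no filter on low counts, and 2 without a minimum fold change. Raising the adjusted p to 0.1 also gave 2. Every criterion was met by 1.76% of all genes tested with the likelihood ratio test and by 1.48% with its length-corrected form. For DESeq2, library size only, no filter and fits with a retina left out, no such share is given. Their counts by every criterion therefore cannot be set beside all genes. Leaving out 1 retina gave 0 to 17 members by adjusted p and 0 to 6 with every criterion. The high ends came without control YR613, and without YR714 there were 12 and 5. Of all genes, 8.84% and 5.89% passed by adjusted p in those fits, and 0.291% to 0.923% without another retina. *Kcnip3* lost its call without YR612, YR615, YR711 or YR713. Each of these fits has 1 retina fewer, and the cause of the shifts was not tested. The log2 fold change turned negative for *Kcnab2* with upper quartile factors (-0.01) and length correction (-0.038), for *Kcnh2* without YR714 (-0.022 to 0.18), and for *Kcnf1* without YR711, where it was -0.00 (to 0.124). Of the subfamily medians, those of *Kcnab*, *Kcnk*, *Kcnmb*, *Kcns* and *Kcnt*, among others, changed sign in at least 1 alternative, *Kcnk* only without YR714 (-0.07). No paired analysis was possible because the labels give animal codes and the groups share no replicate numbers. Depth limits the 18 members not tested and genes such as *Kcnv1* and *Kcnj4*, which hold few counts, and 3 retinas in a group limit the power of all tests.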
